A study of Mus musculus with 20 samples.

Results

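Ribosomal protein genes encode the protein part of the cytosolic ribosome. They were taken as the protein-coding mouse genes whose symbols are Rpl or Rps followed by a digit, without the Rps6k kinases, and Rplp0, Rplp1, Rplp2 and Rpsa. The rule gave 91 genes, and 70 of them had at least 1 of the binding regions mapped in this series. These 70 genes held 90 of the 22081 distinct regions. Each region belongs to the closest protein-coding gene, measured from the middle of the region, with distance 0 inside a gene and a limit of 100 kb. The limit decided nothing here, as the farthest of the 90 regions lay 16.5 kb from its gene and 0 regions nearest to such a gene lay beyond it.

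The study mapped binding of Bcl11b, a zinc-finger DNA-binding protein of T cells, and of Foxp3, the lineage factor of regulatory T (Treg) cells, by chromatin immunoprecipitation and sequencing in C57BL/6 mice. Cells came from spleen and draining lymph nodes, and the labels give no age. Wild-type (WT) Treg cells carried Foxp3-IRES-YFP-Cre and were sorted as CD4+YFP+. They gave 3 Bcl11b, 2 Foxp3 and 3 input libraries. Cells labelled Tn gave 3 Bcl11b and 2 input libraries. Tn is not spelled out in the labels, which list the same genotype and sort as for the WT Treg cells, and it is kept here as a name only. Bcl11b-KO Treg cells were Bcl11b f/f with the same Foxp3-IRES-YFP-Cre allele, also sorted as CD4+YFP+, and gave 2 Foxp3 and 2 input libraries. Their deletion is driven by Cre from the Foxp3 locus and is therefore directed at cells that have switched Foxp3 on. The Cre allele is shared by the WT Treg, Tn and Bcl11b-KO groups. KIKO cells carried Foxp3-GFPKO and were sorted as CD4+GFP+. The labels describe them as Treg cells without Foxp3, also abbreviated Tfn, and they gave 2 Bcl11b libraries and 1 input library.

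The deposited data are 12 lists of positions in mm10, 3 for each of 4 comparisons, and they hold no read counts, scores or values per replicate. Each comparison has a list for either set alone and a list for both. The comparisons were Bcl11b in Treg against Tn, Bcl11b in Treg against KIKO, Bcl11b against Foxp3 in Treg, and Foxp3 in WT against Bcl11b-KO Treg. The first 3 share the Treg Bcl11b libraries and the last 2 share the WT Foxp3 libraries, so classes are given side by side and agreement between such comparisons is not read as a result. "Lost" below means listed as specific to the first set. Shares have Wilson 95% intervals, which cover counting error only. Deletion of Bcl11b or Foxp3 and the identity of the sorted cells could not be checked from positions.

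A ribosome has a large and a small subunit, each built of ribosomal RNA and 1 copy of most of its proteins. The small subunit reads the messenger RNA and the large subunit joins the amino acids, while the acidic stalk proteins of the large subunit recruit the factors that drive elongation. The genes are among the most highly transcribed in dividing cells. In mammals many of their promoters hold ETS (GABP), YY1 and SP1 sites, and transcription usually starts at a C within a run of pyrimidines, which in the messenger RNA places translation under control of mTOR. In T cells the demand for ribosomes rises with activation, and mice without Rpl22 have an arrest of alpha-beta T cell development.

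The regions at these genes lay mostly over the start of transcription, so the promoters themselves are shown for 10 members whose region covered the start. Rpl11, Rplp0, Rps12 and Rps27l had a region on the lists of all 5 sets. Rpl10 and Rpl10a had a region that Bcl11b kept in KIKO cells and Foxp3 lost in Bcl11b-KO cells. Rpl18 and Rpl22 lost theirs in KIKO cells. Rpl12 and Rpl22l1 had a region on the Foxp3 side alone, lost from Bcl11b-KO cells at Rpl12 and common at Rpl22l1. Each sequence runs 5′ to 3′ on the gene's strand from 150 bases before the annotated start to 25 bases from it, in RefSeq GRCm38.p6, whose coordinates are those of mm10. Capitals mark CCGGAAG, the core bound by ETS factors, and CTTTC, a pyrimidine string, each on either strand.

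Rpl11, chr4:136053369-136053543, minus strand: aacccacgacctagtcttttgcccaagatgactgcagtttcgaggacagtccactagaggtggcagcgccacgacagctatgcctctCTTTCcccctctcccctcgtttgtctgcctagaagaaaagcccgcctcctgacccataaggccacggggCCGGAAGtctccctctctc
Rplp0, chr5:115559317-115559491, plus strand: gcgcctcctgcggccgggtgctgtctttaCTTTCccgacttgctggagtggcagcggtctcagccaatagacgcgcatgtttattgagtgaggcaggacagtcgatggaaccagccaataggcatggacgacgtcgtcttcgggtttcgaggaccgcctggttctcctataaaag
Rps12, chr10:23787185-23787359, minus strand: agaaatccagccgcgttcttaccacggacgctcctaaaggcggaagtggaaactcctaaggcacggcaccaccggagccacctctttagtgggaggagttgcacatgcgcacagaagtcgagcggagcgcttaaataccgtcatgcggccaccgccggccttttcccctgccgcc
Rps27l, chr9:66945936-66946110, plus strand: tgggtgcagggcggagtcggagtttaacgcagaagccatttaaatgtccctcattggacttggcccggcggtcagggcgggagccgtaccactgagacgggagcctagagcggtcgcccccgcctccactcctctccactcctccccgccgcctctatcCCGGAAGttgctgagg
Rpl10, chrX:74270666-74270840, plus strand: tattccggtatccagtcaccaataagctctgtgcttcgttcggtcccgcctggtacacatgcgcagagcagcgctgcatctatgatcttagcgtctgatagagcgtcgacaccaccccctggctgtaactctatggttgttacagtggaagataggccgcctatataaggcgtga
Rpl10a, chr17:28328321-28328495, plus strand: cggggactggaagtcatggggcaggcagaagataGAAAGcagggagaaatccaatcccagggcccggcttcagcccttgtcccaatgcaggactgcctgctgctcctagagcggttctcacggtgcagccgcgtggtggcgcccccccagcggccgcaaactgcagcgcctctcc
Rpl18, chr7:45717921-45718095, plus strand: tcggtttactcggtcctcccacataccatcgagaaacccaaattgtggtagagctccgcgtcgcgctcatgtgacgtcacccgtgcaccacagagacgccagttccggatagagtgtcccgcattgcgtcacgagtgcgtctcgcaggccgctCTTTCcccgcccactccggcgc
Rpl22, chr4:152325576-152325750, plus strand: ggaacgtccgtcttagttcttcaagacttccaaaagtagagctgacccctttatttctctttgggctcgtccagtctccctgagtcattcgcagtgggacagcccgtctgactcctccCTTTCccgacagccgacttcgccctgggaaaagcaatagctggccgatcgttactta
Rpl12, chr2:32961562-32961736, plus strand: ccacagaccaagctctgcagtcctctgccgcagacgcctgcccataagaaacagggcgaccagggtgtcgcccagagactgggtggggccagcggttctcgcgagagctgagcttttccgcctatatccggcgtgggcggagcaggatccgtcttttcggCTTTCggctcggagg
Rpl22l1, chr3:28805358-28805532, plus strand: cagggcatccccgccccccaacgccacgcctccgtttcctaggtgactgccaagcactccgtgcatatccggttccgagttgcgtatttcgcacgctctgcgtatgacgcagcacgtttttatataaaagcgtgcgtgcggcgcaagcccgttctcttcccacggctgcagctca

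Within these windows the ETS string occurred in Rpl11 and Rps27l, 1 time each. The pyrimidine string occurred in Rpl11, Rplp0, Rpl10a, Rpl18, Rpl22 and Rpl12.

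Ribosomal protein genes had a region more often than protein-coding genes at large. With regions at any distance counted, this was beyond counting error in 4 of the 5 sets. A region of any set was found at 70 of 91 members (76.9%, interval 67.3 to 84.4) and at 50.3% of the 21887 protein-coding genes. Treg Bcl11b regions were found at 50 members (54.9%, 44.7 to 64.8), against 28.8% of all genes. Tn Bcl11b regions were found at 36 members (39.6%, 30.1 to 49.8), against 20%. KIKO Bcl11b regions were found at 27 members (29.7%, 21.3 to 39.7), against 9.35%. WT Foxp3 regions were found at 68 members (74.7%, 64.9 to 82.5), against 41.7%. In Bcl11b-KO cells Foxp3 regions were found at 41 members (45.1%, 35.2 to 55.3), against 35.6%, which lay inside the members' interval. Counting only regions within 1 kb of the gene start, it was 39 members (42.9%, 33.2 to 53.1), against 23.4%, which lay below the interval.

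**Figure D1:**
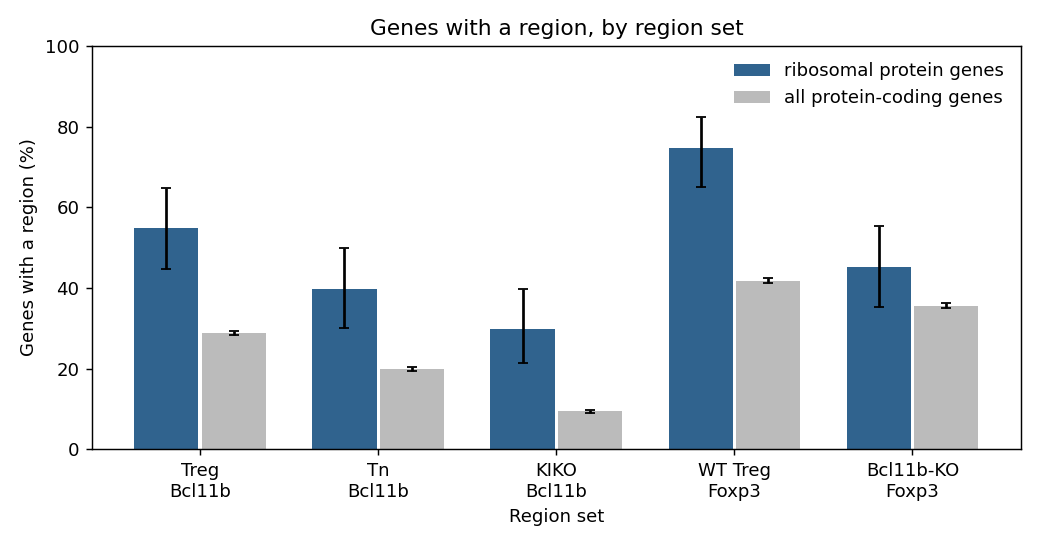
Percentage of genes with at least 1 region of each of the 5 region sets, for the 91 ribosomal protein genes and all 21887 protein-coding genes, with Wilson 95% intervals as error bars. The members stand above all genes in each set, from 29.7% against 9.35% for KIKO Bcl11b to 74.7% against 41.7% for WT Foxp3, and are closest to them for Bcl11b-KO Foxp3, at 45.1% against 35.6%.

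Of the 91 genes, 77 are core ribosomal proteins, 13 are paralogues or copies and 1, Rps19bp1, encodes a protein that binds Rps19 and is no ribosomal protein. Among the core genes 65 had a region (84.4%, 74.7 to 90.9). The large subunit and stalk had one at 39 of 46 genes (84.8%) and the small subunit at 26 of 31 (83.9%), with intervals of 71.8 to 92.4 and 67.4 to 92.9. Among the copies 4 of 13 had a region, namely Rpl22l1, Rpl36al, Rpl7l1 and Rps27l, and Rps19bp1 had 1. A single region was found at 53 members, 2 regions at 14 and 3 regions at 3, Rpl14 and Rps26 among the last.

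The 21 members without a region were Rpl10l, Rpl17, Rpl23a, Rpl24, Rpl31-ps12, Rpl32l, Rpl34-ps1, Rpl35, Rpl37, Rpl37rt, Rpl39l, Rpl3l, Rpl6, Rpl9, Rps18, Rps23rg1, Rps24, Rps25, Rps27, Rps27a and Rps27rt. Rpl3l, Rpl10l and Rpl39l are paralogues known for expression in muscle or testis. At 4 core genes a region lay within 1 kb but nearer to a neighbour: Rpl37 beside Card6, Rpl9 beside Lias, Rps18 beside Vps52 and B3galt4, and Rps27 beside Nup210l. The region between Rpl37 and Card6 (chr15:5116232-5116568) was common in all 4 comparisons. That between Rpl9 and Lias (chr5:65391304-65391661) was common in the 3 Bcl11b comparisons and lost from Bcl11b-KO cells. No region lay within 1 kb of the other 17, of which 8 were core genes: Rpl17, Rpl23a, Rpl24, Rpl35, Rpl6, Rps24, Rps25 and Rps27a, the last a fusion of ubiquitin with a ribosomal protein. Rpl4, Rpl15, Rpl18, Rpl41 and Rplp2 had a region of their own and also one within 1 kb that was given to a neighbour. The reverse also held, since 6 member regions lay within 1 kb of another gene's start. For example the region at Rpl18 was 48 bp from the start of Sphk2 and that at Rps28 was 62 bp from the start of Ndufa7, so either gene could be meant.

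Ribosomal protein pseudogenes are many in the mouse and close in sequence to the genes. A centre fell inside 0 of 309 such pseudogenes, which allows a share of up to 0.971%, against 99 of 10429 pseudogenes of any kind (0.949%), so a difference from other pseudogenes was not detectable. A centre fell inside 32 of the 91 members (35.2%, 26.1 to 45.4). Reads that match gene and pseudogene equally could still have been dropped or placed at either one, and the labels do not say how they were treated.

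Member regions sat close to the start. The centre was within 1 kb of the start at 74 of 90 regions (82.2%, 73.1 to 88.8), against 39.9% of all 21850 regions with a gene, and these are called start-proximal. By gene, 68 of 91 members (74.7%, 64.9 to 82.5) had such a region, against 33.2% of protein-coding genes. The start itself lay inside the region at 41 of 67 member regions whose gene has an annotated start (61.2%, 49.2 to 72.0), against 21.4% of all such regions. For the 54 start-proximal member regions with a known strand, the median centre was 26 bp upstream (offset -26, quartiles -90 and 38), and 35 lay upstream and 19 downstream. The median distance was 64 bp, against 128 bp over 7189 start-proximal regions of all genes. The closest were at Rpl35a (1 bp), Rps7 (4 bp), Rps6 (5 bp) and Rpl10 (6 bp). For 21 members without a start in the RefSeq table the nearer gene end was used, which may be the 3′ end. Just inside the 1 kb limit stood Rpl36, at 864 bp by a gene end, and just outside it Rpl38, at 1292 bp.

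**Figure D2:**
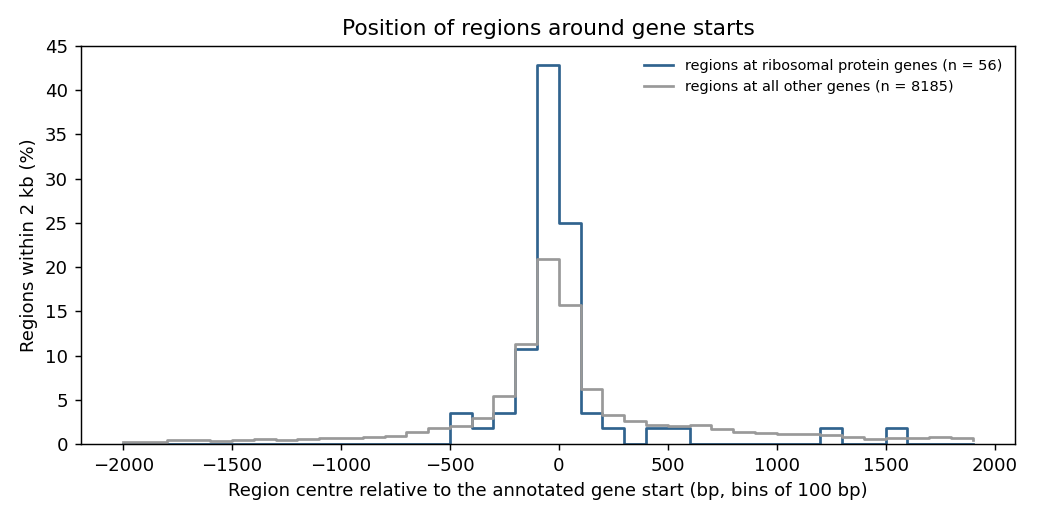
Position of region centres relative to the annotated gene start, in bins of 100 bp and as a percentage of the regions within 2 kb, for 56 regions at ribosomal protein genes and 8185 at all other genes; negative values are upstream. The member regions pile up in the bins on either side of the start, with 24 regions in the 100 bp before it and 14 in the 100 bp after it.

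The other 16 regions, at 13 genes, are called distal. They included those at Rpl11, Rpl12, Rpl14 (all 3), Rpl22, Rpl3, Rpl38, Rpl5, Rplp2, Rps13, Rps14, Rps26 (2 of them) and Rps3a1. Rpl14 and Rplp2 were the members whose only assigned regions were distal. A region over the start of Rplp2 (chr7:141447407-141447797) was given to its neighbour Pidd1. It was common to Bcl11b and Foxp3 and lost by Foxp3 in Bcl11b-KO cells. The distal region of Rpl22 was inside the gene, 7444 bp after the start, and that of Rplp2 was 1504 bp after it. The distal region of Rpl3 (chr15:80061143-80061435) was the farthest, at 16.5 kb from the gene. In each comparison the start-proximal and distal regions of these genes are given apart, because classes differed with distance over all regions too.

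In the comparison of Bcl11b between Treg and Tn cells, most ribosomal protein regions were common. Of 43 Treg regions, 6 were Treg-specific (14.0%, 6.56 to 27.3), against 31.1% of all Treg regions. Of the 6, 5 were distal, those at Rpl3, Rpl5, Rplp2 and Rps14 among them. This was 5 of 9 distal member regions (55.6%, 26.7 to 81.1), against 45.9% of all distal Treg regions. Among start-proximal regions 1 of 34 was Treg-specific (2.94%, 0.521 to 14.9), against 8.89% over all genes, which lay inside the interval. Of 38 Tn regions 1 was Tn-specific (2.63%), against 13.9% of all Tn regions. It was the distal region of Rpl12 (chr2:32966755-32967030), a protein at the base of the stalk.

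The 33 common start-proximal regions held 19 genes of the large subunit and stalk, 11 of the small subunit, and 3 copies or others. Rpl11, which with Rpl5 and a ribosomal RNA forms the particle that restrains Mdm2, was among them (chr4:136053268-136053577). So were Rplp0, the scaffold of the stalk (chr5:115559125-115559480), and Rps6, the target of the S6 kinases (chr4:86857148-86857576). Rpl13a, which in human cells can leave the ribosome to silence transcripts induced by interferon gamma, had a common region of 529 bp.

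In the comparison of Treg with KIKO cells, Bcl11b regions at ribosomal protein genes were listed as lost less often than regions at large. Of 43 Treg regions, 16 were lost (37.2%, 24.4 to 52.1), against 62.3% over all regions. Among start-proximal regions 9 of 34 were lost (26.5%, 14.6 to 43.1), against 49.4%, and the interval did not reach that background. Among distal member regions 7 of 9 were lost (77.8%, 45.3 to 93.7), against 70.5% of all distal regions, so distal loss was near the background. Of 27 KIKO regions, 0 were KIKO-specific, which allows up to 11.1%, against 3.05% over all KIKO regions.

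The 9 start-proximal losses included Rpl18, Rpl22, Rpl29, Rpl35a and Rpl38 in the large subunit and Rps3 and Rps7 in the small one. Rpl22 (chr4:152325642-152325962) is the RNA-binding protein needed for T cell development in mice. Rpl38 (chr11:114668348-114668668) favours translation of Hox transcripts in the mouse embryo. Rps3 (chr7:99483377-99483574) also acts in DNA repair and as a partner of NF-kB. Its lost region was 198 bp wide, whereas that of Rpl35a (chr16:33056187-33056721) was 535 bp. At Rpl22 the distal region inside the gene was common in this comparison, while the one at the start was lost.

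The 25 start-proximal regions that Bcl11b kept were at Rpl10, Rpl10a, Rpl11, Rpl23, Rpl26, Rpl27, Rpl28, Rpl30, Rpl32, Rpl36, Rpl36a, Rpl4, Rpl5 and Rplp0 in the large subunit. In the small subunit they included Rps12, Rps14, Rps15, Rps20, Rps29, Rps3a1 and Rps6, with Rpl7l1, Rps19bp1 and Rps27l besides. By subunit, 6 of 20 large subunit and stalk regions and 3 of 11 small subunit regions were lost. The lost and kept start-proximal regions had median widths of 321 and 332 bp.

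**Figure D3:**
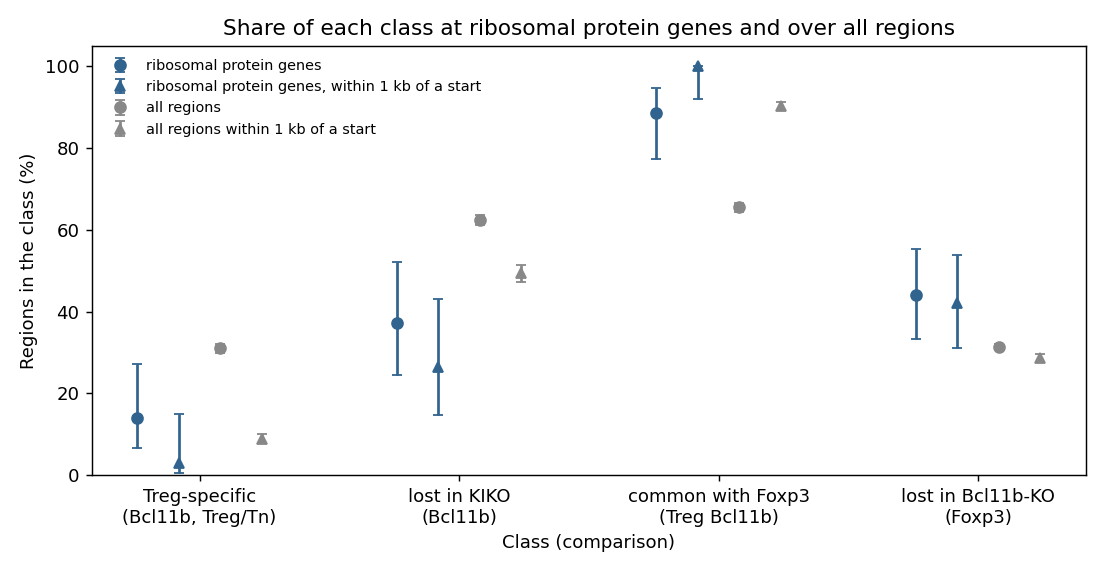
Percentage of regions in 1 class of each comparison, for regions at ribosomal protein genes (blue) and over all regions (grey), circles for all distances and triangles for regions within 1 kb of a start, with Wilson 95% intervals. The blue triangles stand below the grey ones for loss in KIKO (26.5% against 49.4%) and above them for loss of Foxp3 in Bcl11b-KO cells (42.0% against 28.6%).

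In the comparison of Bcl11b with Foxp3 in Treg cells, every start-proximal member region on the Bcl11b side was also on the Foxp3 side. Of 53 Treg Bcl11b regions in this comparison, 47 were common with Foxp3 (88.7%, 77.4 to 94.7), against 65.5% over all regions. Among start-proximal regions it was 45 of 45 (100%, 92.1 to 100), against 90.4%. Among start-proximal regions wider than 276 bp it was 31 of 31 (100%, 89.0 to 100), against 96.7%, which lay inside the interval. Among distal regions 2 of 8 were common (25%, 7.15 to 59.1), against 47.7%. The 6 regions with Bcl11b alone were all distal, among them those at Rpl5, Rplp2, Rps14, Rps26 and Rps3a1. All 6 were 198 bp wide, the most frequent width of the Treg Bcl11b set. At Rpl5 the Bcl11b region (chr5:107891993-107892190) lay 8436 bp before the start.

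From the Foxp3 side, 47 of 76 regions were common with Bcl11b (61.8%, 50.6 to 71.9), against 33.2% over all Foxp3 regions. Among start-proximal regions it was 45 of 69 (65.2%, 53.4 to 75.4), against 39.3%. The 29 regions with Foxp3 alone were start-proximal in 24 cases, against 4217 of 9512 over all regions. The start-proximal share of member regions in general was 82.2%. The 24 included those at Rpl7, Rpl7a, Rpl12, Rpl19, Rpl27a, Rpl34, Rpl39 and Rpl41 of the large subunit and Rplp1 of the stalk. In the small subunit they included Rps10, Rps13, Rps19, Rps23, Rps28 and Rpsa, the last also known as the laminin receptor precursor. By subunit, 23 of 37 large subunit and stalk regions and 19 of 27 small subunit regions were common with Bcl11b.

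The Treg Bcl11b side of the comparisons differed between lists at these genes. A region was listed for Treg Bcl11b in at least 1 of 3 comparisons at 60 member regions and in all 3 at 37. At Rpl10, Rpl31 and Rpl5 a start-proximal region stood under Treg Bcl11b against Tn or KIKO but under Foxp3 alone against Foxp3. A further 4 regions stood under Treg Bcl11b against Tn or KIKO and on no list of the Foxp3 comparison, of which 3 were start-proximal, at Rpl30 (2 regions) and Rps15, and 1 was the distal region of Rpl22. Another 12 regions were common to Bcl11b and Foxp3 yet on neither the Tn nor the KIKO lists, among them those at Rpl3, Rpl8, Rpl15, Rps2, Rps9 and Rps16. The classes of these members therefore depend on which comparison is read. Regions were matched by identical bounds, so a site listed with other bounds in another comparison counted as not listed there. The 2 regions of Rpl30, for example, lay side by side (chr15:34443065-34443537 and chr15:34443552-34443777). How much of the difference between lists came from this matching was not tested.

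In the comparison of Foxp3 between WT and Bcl11b-KO Treg cells, ribosomal protein regions were listed as lost more often than regions at large. Of 75 WT regions, 33 were lost (44.0%, 33.3 to 55.3), against 31.3% over all regions. Among start-proximal regions 29 of 69 were lost (42.0%, 31.1 to 53.8), against 28.6%. Of 45 Bcl11b-KO regions 3 were KO-specific (6.67%, 2.29 to 17.9), against 17.9% over all. The 3 were distal, at Rpl14, Rpl3 and Rpl38, out of 5 distal regions (60.0%, 23.1 to 88.2), against 27.8%. Among distal WT regions 4 of 6 were lost (66.7%, 30.0 to 90.3), against 33.9%. Among start-proximal regions 0 of 40 were KO-specific, which allows up to 7.50%, against 5.49%.

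The start-proximal losses were 17 of 37 in the large subunit and stalk and 11 of 27 in the small subunit, plus Rps19bp1. In the large subunit they included Rpl10, Rpl10a, Rpl12, Rpl15, Rpl18, Rpl19, Rpl23, Rpl26, Rpl27, Rpl29, Rpl31, Rpl36a, Rpl4, Rpl41, Rpl5 and Rpl8. Beside the lost region of Rpl15, a region given to its neighbour Nkiras1 (chr14:18271113-18271495) was common to WT and Bcl11b-KO Foxp3. Rpl10 is among the last proteins to join the large subunit, and its region (chrX:74270602-74271017, 416 bp) had its centre 6 bp before the start. Rpl4 lines the exit tunnel for the new protein and Rpl23 binds Mdm2, as Rpl5 and Rpl11 do. Rpl5 and Rpl11 are partners in 1 particle and differed here, with the start-proximal region of Rpl5 (chr5:107900359-107900636) lost and that of Rpl11 common.

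In the small subunit the losses included Rps13, Rps14, Rps16, Rps19, Rps20, Rps26, Rps3, Rps6 and Rpsa. Rps14, Rps19 and Rps26 are genes whose loss of 1 copy causes anaemia in humans. Rps6 had its region (429 bp) centred 5 bp after the start, and Rps19 (chr7:24884300-24884698, 399 bp) had one centred 93 bp before it. At Rpsa one region was lost, 478 bp before the start, and one was common, 54 bp after it. At Rpl19 the region before the start was again the lost one, at 84 bp, and that 498 bp after it was common. The lost region was the closer of the pair at Rpl19 and the farther at Rpsa.

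The 40 common start-proximal regions included Rpl3 and Rps2, proteins of the catalytic and decoding sides. They also included Rpl22, Rplp0, Rplp1, Rps4x, which lies on the X chromosome, and Rpl39 of the exit tunnel. Both members of the paralogue pair Rpl22 and Rpl22l1 were common here. They differed in the Bcl11b lists, where Rpl22 was common with Foxp3 and Rpl22l1 (chr3:28805316-28805797) was on the Foxp3 side alone.

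Width was the only other property the lists gave. In the Bcl11b sets the most frequent width was 198 bp (Treg), 226 bp (Tn) and 252 bp (KIKO). In the Foxp3 sets it was 220 bp (WT) and 276 bp (Bcl11b-KO). Regions at ribosomal protein starts were wider, with a median of 300 bp and 44 of 74 over 276 bp (59.5%), against a median of 276 bp and 41.1% over all start-proximal regions. Those lost from Bcl11b-KO cells had a median of 284 bp, against 220 bp for all start-proximal losses. Restricted to regions over 276 bp, 16 of 44 start-proximal member regions were lost (36.4%, 23.8 to 51.1), against 19.7% of all such regions. In KIKO the same restriction left 5 of 26 lost (19.2%, 8.51 to 37.9), against 41.8%. For Treg Bcl11b regions common with Foxp3 the background under this restriction (96.7%) lay inside the members' interval (89.0 to 100). A region of exactly the most frequent width of 1 set could also be listed as common, as 13 of 42 common member regions were in the WT and Bcl11b-KO comparison (31.0%), against 53.8% of all common regions. Whether common means a call in both sets is therefore not known from the lists.

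**Figure D4:**
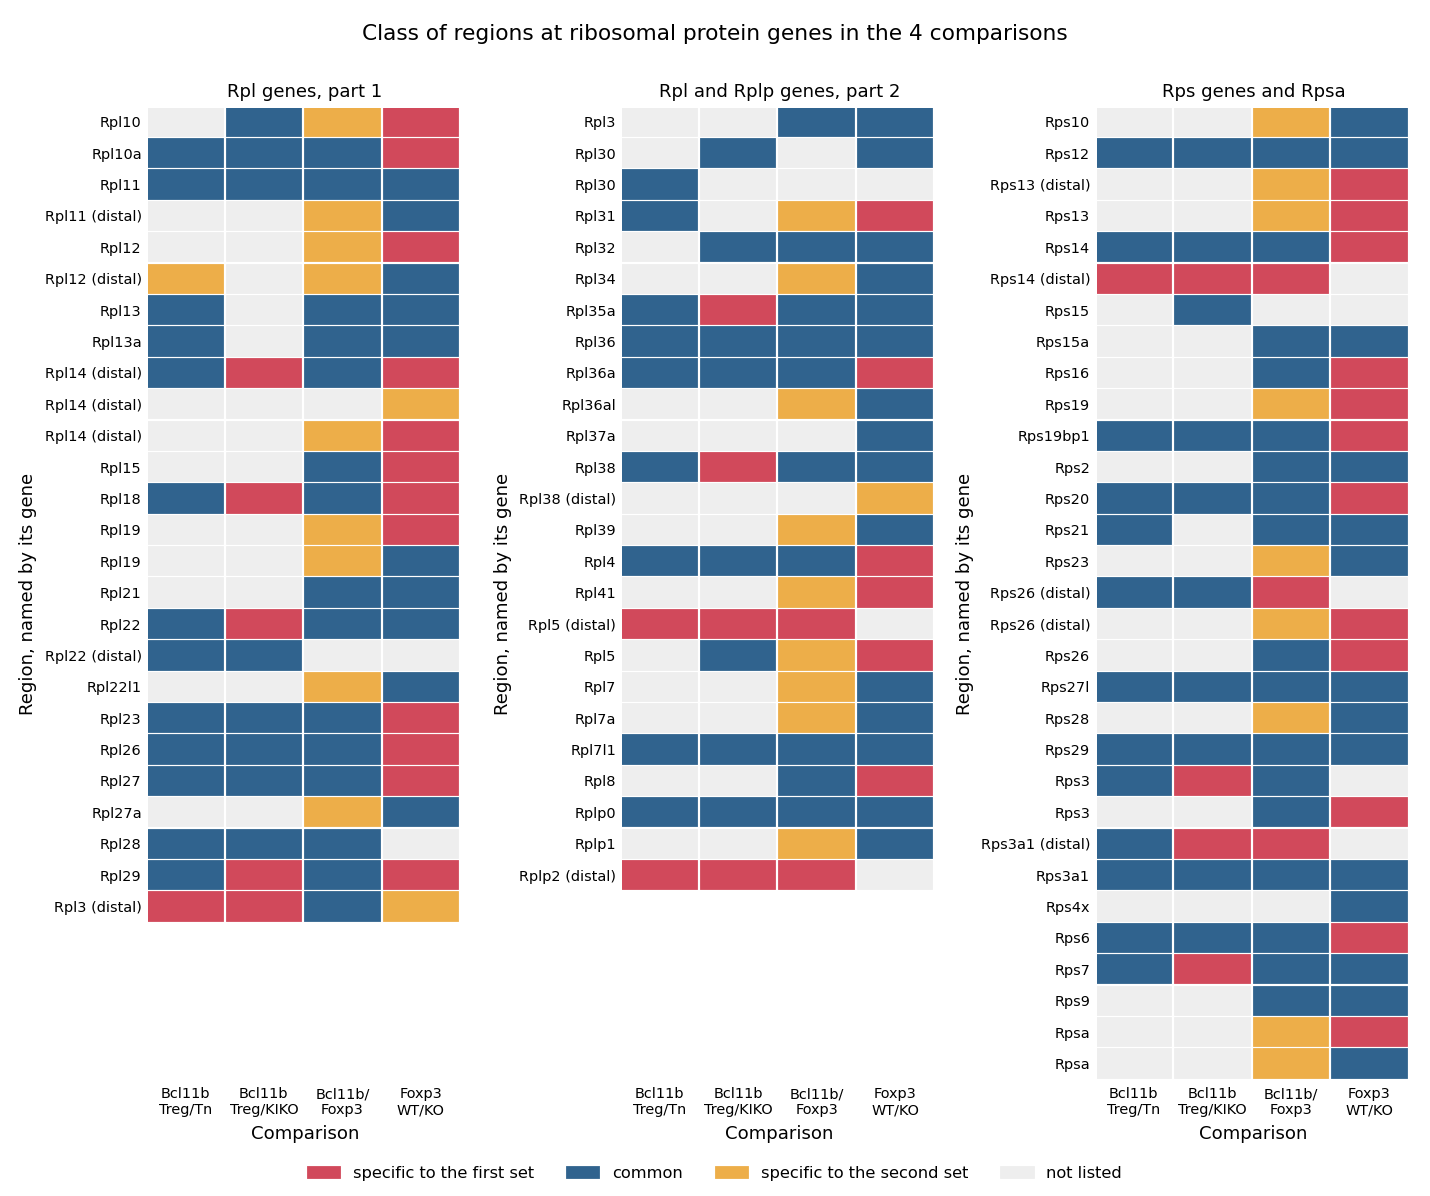
Class of 82 of the 90 regions at ribosomal protein genes in the 4 comparisons, 1 row per region named by its gene, with the first and second set in the order given under each column (red, first set; blue, common; yellow, second set; grey, not listed). The red cells in the first column are 4, all in rows marked distal, and the column for Foxp3 in WT and Bcl11b-KO cells holds 30 red cells spread over both subunits.

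Read side by side, 8 start-proximal regions were common in all 4 comparisons, at Rpl11, Rpl36, Rpl7l1, Rplp0, Rps12, Rps27l, Rps29 and Rps3a1. This was 8.89% of member regions, against 3.30% of all regions. Of start-proximal member regions, 10.8% (5.58 to 19.9) were on lists of all 5 sets. Over all start-proximal regions it was 6.98%, which lay inside the interval. A further 11 start-proximal regions were common in the 3 Bcl11b comparisons and lost by Foxp3 in Bcl11b-KO cells. These were 12.2% of member regions, against 1.19% of all regions. They included Rpl10a, Rpl23, Rpl26, Rpl27, Rpl36a, Rpl4, Rps14, Rps19bp1, Rps20 and Rps6. At Rpl18 and Rpl29 the start-proximal region, and at Rpl14 a distal one, was lost by Bcl11b in KIKO cells and by Foxp3 in Bcl11b-KO cells. At Rpl22, Rpl35a, Rpl38 and Rps7 it was lost by Bcl11b in KIKO cells and common for Foxp3. The distal regions of Rpl5, Rplp2 and Rps14 were Treg-specific, lost in KIKO and without Foxp3. The KIKO and Bcl11b-KO comparisons share no immunoprecipitated library, but both have a WT Treg side, and whether the WT Treg input libraries served both is not given in the labels. Of the 27 member regions that Bcl11b kept in KIKO, 23 were also listed for WT Foxp3 against Bcl11b-KO. Foxp3 lost 13 of these 23 (56.5%, 36.8 to 74.4), against 24.8% of all regions kept in KIKO and so listed. Of the 16 member regions that Bcl11b lost in KIKO, 8 were so listed, and Foxp3 lost 4 of them, against 26.9% of all such regions. With 8 regions in the second group, its interval ran from 21.5 to 78.5.

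Other gene groups of the same pathway, and unrelated housekeeping groups, were described in the same way. For loss of Foxp3 in Bcl11b-KO cells, 19 of 68 regions were lost at mitochondrial ribosomal protein genes (27.9%, 18.7 to 39.6) and 25 of 73 at translation factors (34.2%, 24.4 to 45.7). It was 13 of 38 at ribosome assembly genes (34.2%, 21.2 to 50.1), 33 of 85 at respiratory chain genes (38.8%, 29.2 to 49.5) and 20 of 73 at splicing factors (27.4%, 18.5 to 38.6). These intervals overlapped that of the cytosolic ribosomal protein genes, so the loss was not shown to be particular to them. For loss of Bcl11b in KIKO, the mitochondrial ribosomal protein genes stood at 43.2% (19 of 44) and the respiratory chain at 35.6% (16 of 45). Translation factors stood at 51.5% (17 of 33), splicing factors at 50% (15 of 30) and ribosome assembly genes at 33.3% (3 of 9), against 37.2% in the cytosolic group. A region of any set was found at 73.1% of mitochondrial ribosomal protein genes, 83.3% of translation factors and 84.8% of ribosome assembly genes. It was found at 72.5% of respiratory chain genes and 82.6% of splicing factors, against 76.9% in the cytosolic group. The start-proximal share of the regions was 69.9% for mitochondrial ribosomal protein genes, 69.0% for ribosome assembly genes and 65.6% for splicing factors. It was 63.4% for the respiratory chain and 63.2% for translation factors, and 82.2% (73.1 to 88.8) in the cytosolic group. No interval was computed for the other groups and gene length was not taken into account. A higher share was therefore not shown to be particular to the cytosolic group.

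**Figure D5:**
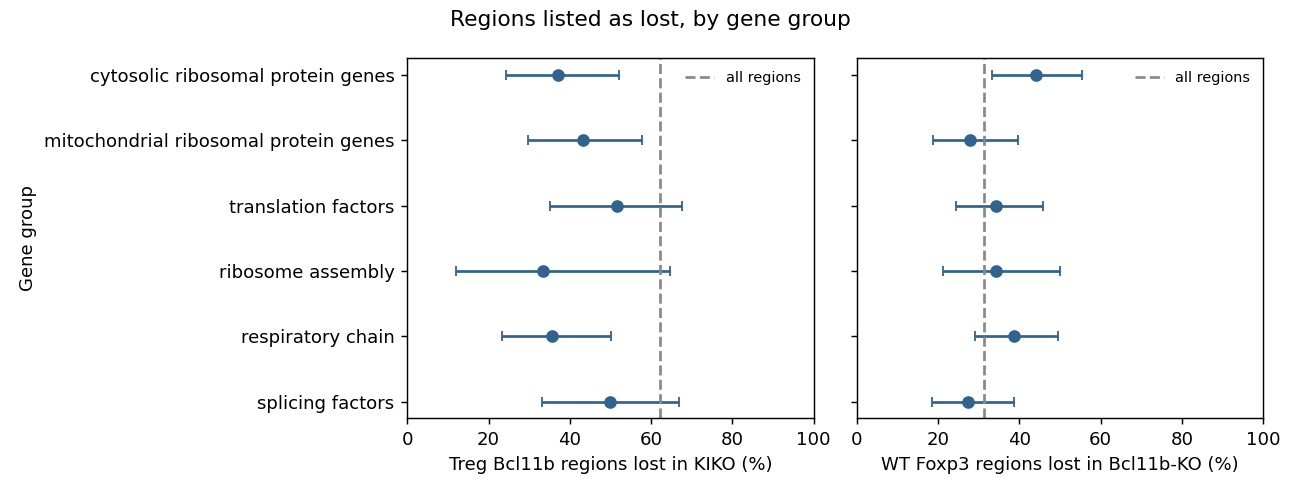
Percentage of Treg Bcl11b regions lost in KIKO (left) and of WT Foxp3 regions lost in Bcl11b-KO cells (right) for 6 gene groups, with Wilson 95% intervals and the value over all regions as a dashed line. Cytosolic ribosomal protein genes stand at 37.2% on the left and at 44.0% on the right, and the intervals of the groups overlap.

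Fau, a ribosomal protein gene outside the symbol rule, which encodes a small subunit protein fused to a ubiquitin-like one, had 1 start-proximal region, common to WT and Bcl11b-KO Foxp3. Among 14 genes that act on ribosomal protein transcription or translation, 12 had a region (85.7%, 60.1 to 96.0), 26 in all. The share was 50.3% over all protein-coding genes and 83.3% at translation factors. Rptor, the mTOR partner that binds its substrates, had a start-proximal region common in all 4 comparisons (chr11:119602797-119603120). Mtor had one shared by Bcl11b and Foxp3 and lost by Foxp3 in Bcl11b-KO cells, as had Yy1, a factor of ribosomal protein promoters. Myc, which drives ribosome production, had 5 regions, none of them start-proximal. Its Foxp3 region common with Bcl11b (chr15:61981482-61981758) was common to WT and Bcl11b-KO, and 2 others were lost. Eif4ebp1, a translation repressor under mTOR, had a start-proximal Bcl11b region that was Treg-specific, lost in KIKO and without Foxp3.

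Promoter strings were counted in the RefSeq windows from 250 bases before to 50 bases from the start, on both strands, for the 70 members in the table and for 17492 protein-coding genes. For a member with a region and several starts, the start nearest its region was taken. For all protein-coding genes the first start listed was taken, so the 2 groups were not chosen alike. A match describes letters and is no evidence of binding. CCGGAAG, the ETS core, was in 25 of 70 member promoters (35.7%, 25.5 to 47.4), against 11.9% of all promoters and 22.1% of those with a start-proximal region. CTTTC was in 56 (80.0%, 69.2 to 87.7), against 54.8% and 52.7%. GGGCGG, the SP1 box, was in 40 (57.1%, 45.5 to 68.1), against 46.3% and 66.4%. AAGATGGCG, the YY1 string, was in 4, at Rpl13a, Rpl35a, Rpl7l1 and Rps27 (5.71%, 2.24 to 13.8), against 1.94% and 3.41%, the latter inside the interval. The second background value holds only promoters with a start-proximal region, which 51 of the 70 members had. Among these 51 the shares were 35.3% for ETS, 82.4% for CTTTC, 68.6% for the SP1 box and 5.88% for YY1. A run of at least 6 pyrimidines across the start was found at 20 of 70 members (28.6%, 19.3 to 40.1), against 6.17%. The annotated start base was C at 34.3% of them, against 13.7%.

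Strings of the forkhead, RUNX and Bcl11 families stood at shares near or below those of all promoters. GTAAACA, a forkhead string of the family of Foxp3, was in 1 member promoter, that of Rpl41 (1.43%, 0.253 to 7.66), against 2.94% of all. TGTGGTT, the RUNX string, was in 2, Rps2 and Rps3a1 (2.86%), against 4.84%. TGACCA, the core known for Bcl11a, the paralogue of Bcl11b, was in 9 (12.9%, 6.91 to 22.7), against 12.5%. By class, the ETS core was in 8 of 22 promoters with a start-proximal Foxp3 region lost from Bcl11b-KO cells and in 12 of 29 with a common one. It was in 5 of 18 promoters where Bcl11b was kept in KIKO and in 2 of 6 where it was lost. It was in 18 of 51 member promoters with a start-proximal region and in 7 of 19 without. The SP1 box was in 35 of 51 promoters with a start-proximal region (68.6%, 55.0 to 79.7) and in 5 of 19 without (26.3%, 11.8 to 48.8). The group without included paralogues and copies. It was set by assigned regions and is not a group of unbound promoters. It also held Rpl37, Rpl9, Rps18, Rps27 and Rplp2, which had a region within 1 kb given to a neighbour.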

How the data were processed

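ChIP-seq regions of Bcl11b and Foxp3 from 12 immunoprecipitated and 8 input libraries were used. The authors deposited 12 lists of positions (chromosome, start, end), without counts, scores or other units. The build is mm10 and the named tools include HISAT2 2.1.0, HOMER 4.10.1, SAMtools 1.3, deepTools, FastQC, cutadapt 1.12 and Trim Galore 0.4.2, per the submitters' processing notes, which give no roles. The labels state neither the peak threshold, nor how common and specific were defined, nor any pooling of replicates. Depth per library is unknown and the lists are per group, so no test over samples was possible. For replicate 3 of Treg Bcl11b the labels name no list, and for replicate 2 of WT Foxp3 they omit the list common to both factors; whether they entered is not known.

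Repeated rows (127) were dropped, and 25 regions in 2 classes of 1 comparison, 0 of them at members, were left out of it. Regions were matched by identity and assigned with the RefSeq table of GRCm38.p6. Start sites came from its promoter table, for 70 of 91 members. Shares have Wilson 95% intervals, and a count of 0 is given with the share that 3 counts allow. Regions at 1 gene are not independent. The members, the gene lists and the strings were chosen with earlier results of these data known. The rule for named genes took the 10 members with most regions, those with a region specific to Tn, KIKO or Bcl11b-KO, those on the WT or common side of all 4 comparisons, up to 12 by symbol of each further class, and those without a region. Some members are not reported by name here, and counts include them. Classes with more than 12 members were then named beyond 12, a choice made after they were seen. On simulated data, assignment matched a plain search in 500 of 500 cases, and 292 of 300 intervals held the planted share. Alternatives were other limits and gene sets, wide regions, autosomes, and start-proximal regions only, the last chosen after seeing the data. Scripts ran in Python 3.11.15 (pandas 2.3.3, numpy 2.4.6, matplotlib 3.10.9, scipy 1.17.1).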

Additional observations from a re-analysis of the deposited data

How the results depend on the processing

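The share of Foxp3 regions lost from Bcl11b-KO cells at ribosomal protein genes stayed within its counting error under every alternative run, between 37.8% and 45.7%. Restricting regions to those wider than 276 bp moved the share of members with a region from 76.9% to 49.5%, the Treg-specific share from 14.0% to 3.57%, the share lost in KIKO from 37.2% to 24.1%, the share common with Foxp3 from 88.7% to 100% and the start-proximal share from 82.2% to 93.6%. Core genes alone gave 84.4% with a region. With centres inside the gene or within 1 kb of it, the Treg-specific share was 5.56%, the share common with Foxp3 97.8% and the start-proximal share 96.1%. With the nearest gene of any kind the start-proximal share was 89.7%. Start-proximal regions alone, chosen after seeing the data, gave 2.94% Treg-specific and 100% common with Foxp3. The restrictions to wide, close or start-proximal regions remove distal regions, which held 5 of the 6 Treg-specific members. In the 150 bases before the start alone, a shorter window, the ETS string was in 22.9% of member promoters (35.7% in the whole window), CTTTC in 44.3% (80.0%), the SP1 box in 37.1% (57.1%), the YY1 string in 1.43% (5.71%) and the forkhead string in 0 of 70 (1.43%). No paired analysis was possible because the lists are per group and carry no replicate values, and for the same reason no replicate could be left out. Depth is unknown, so a region missing from a list cannot be told apart from one too shallow to call.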
